A study of Mus musculus with 6 samples.

Results

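The lysyl oxidases and collagen-modifying enzymes examined here were 10 genes, Lox, Loxl1, Loxl2, Loxl3, Loxl4, Plod1, Plod2, P4ha1, P4ha2 and Bmp1. They were taken by gene name from the non-control spots of the scanner files, among 19496 gene names on the array, and each had 1 probe. The arrays held RNA of the mouse cell line HACA. The silenced cells carried a short hairpin RNA against Loxl2 (shLoxl2) or against Snail, the repressor encoded by Snai1 (shSnail). The control cells carried a hairpin against GFP (shGFP), so cells of every group expressed a hairpin. A hairpin lowers the transcript it is directed against. There were 4 shLoxl2 arrays, which carried the shLoxl2 RNA once in Cy3 and once in Cy5 for replicates 1 and 2. On the 2 shSnail arrays the shSnail RNA was in Cy5 both times. The shGFP RNA filled the other channel of all 6 arrays and counted as 1 control sample. The labels do not say whether replicate numbers were separate cultures, so the p-values measure a spread that may be technical, and they leave out the control's own spread. The labels also do not say how the hairpins were delivered or whether a line was 1 clone.

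Collagen chains are modified while they fold inside the cell and again after secretion. Prolyl 4-hydroxylases, whose catalytic alpha subunits are encoded by P4ha1 and P4ha2, hydroxylate prolines and so stabilise the triple helix, and the lysyl hydroxylases Plod1 and Plod2 hydroxylate lysines that later take part in cross-links. Outside the cell, Bmp1 cuts the C-terminal propeptide from procollagen and also activates pro-lysyl oxidase, after which enzymes of the lysyl oxidase family oxidise lysines in collagen and elastin to start cross-linking.

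P4ha1 was the 1 gene of the 10 that passed the test. It fell in shLoxl2 cells and in shSnail cells, each relative to shGFP cells, with fitted log2 changes of -0.64 and -0.63. The size of the change in shSnail depended on the dye correction, and was -0.40 without it. In P4ha2, its close relative, no change passed. The other 7 tested genes did not pass either, and for the lysyl oxidases the arrays gave little signal to measure. Of 9 genes that could be tested, 1 was called in shLoxl2 against shGFP (11.1%), where 13.9% of all 19752 tested probes were called at a Benjamini-Hochberg adjusted p below 0.05 in limma. Of the same 9, 1 was called in shSnail against shGFP (11.1%), where 21.4% of all tested probes were called. In shSnail against shLoxl2 limma called 0 of 9, where 12.8% of all tested probes were called, and 2 of the 9 had an unadjusted p below 0.05. These shares were near or below the background and are not a result about the group as a whole.

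The promoters of P4ha1 and P4ha2 are shown because P4ha1 was the called gene and P4ha2 encodes the alternative alpha subunit. RefSeq promoter sequences of build GRCm38.p6, running from 250 bases before to 50 bases after the start of the gene, were at hand for 4 of the 10 genes, Loxl4, Plod1, P4ha1 and P4ha2. Capitals mark matches on either strand to ACGTG, the core of the site bound by hypoxia-inducible factor. The P4ha1 promoter lies at chr10:59323046-59323345 and the P4ha2 promoter at chr11:54100674-54100973, both on the plus strand.
P4ha1: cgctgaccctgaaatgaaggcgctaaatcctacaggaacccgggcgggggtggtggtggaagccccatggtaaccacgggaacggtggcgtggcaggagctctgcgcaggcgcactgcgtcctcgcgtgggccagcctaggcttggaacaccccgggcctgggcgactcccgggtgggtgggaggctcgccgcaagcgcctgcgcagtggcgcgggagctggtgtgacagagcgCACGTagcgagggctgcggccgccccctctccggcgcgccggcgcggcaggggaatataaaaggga
P4ha2: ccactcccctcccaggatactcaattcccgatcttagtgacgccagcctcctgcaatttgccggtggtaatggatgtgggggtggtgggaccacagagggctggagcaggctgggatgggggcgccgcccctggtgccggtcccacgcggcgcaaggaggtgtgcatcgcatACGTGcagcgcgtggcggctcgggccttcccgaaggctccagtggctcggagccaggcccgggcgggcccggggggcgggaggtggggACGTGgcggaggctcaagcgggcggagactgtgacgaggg
P4ha1 had 1 match and P4ha2 had 2, while Loxl4 and Plod1 had 0, and 19.6% of 32851 promoters in the table held at least 1. CAGGTG, an E-box bound by Snail, was searched on both strands as well and had 0 matches in these 4 promoters, against a share of 20.2% among all promoters. No matches of the 2 motifs overlapped. A match describes letters in a window and not a site in use.

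Every gene of the group was read first by whether its probe stood well above background, a flag the scanner software sets for each channel. The 5 lysyl oxidases were well above background in 21 of 30 Cy5 channels and in 7 of 30 Cy3 channels. The other 5 genes were so in 30 of 30 Cy5 channels and 26 of 30 Cy3 channels. P4ha1, P4ha2 and Bmp1 were well above background in both channels on all 6 arrays, and no channel of any of the 10 genes was saturated. Over all probe spots, 85.4% to 92.4% were well above background in Cy5 and 55.9% to 74.9% in Cy3. With so few arrays, every value below has limited precision.

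**Figure D1:**
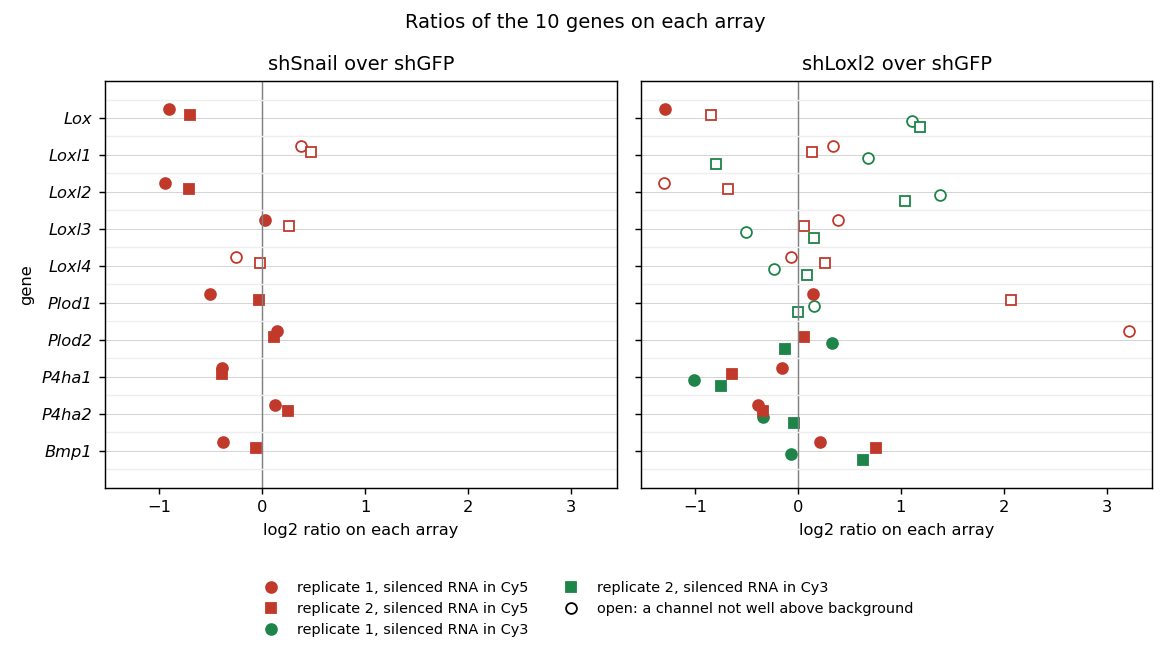
Log2 ratio of silenced over shGFP RNA on each array for the 10 genes, shSnail arrays on the left and shLoxl2 arrays on the right. Points are single arrays, red with the silenced RNA in Cy5 and green with it in Cy3, and open where a channel was not well above background. Lox and Loxl2 lie below 0 in red and above 0 in green, and P4ha1 lies below 0 on all 6 arrays.

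Among the lysyl oxidases, Lox and Loxl2 had ratios that followed the dye and not the hairpin. Lox encodes the founding enzyme of the family. The log2 ratio of shLoxl2 over shGFP for Lox (probe on chromosome 18, 52641526 to 52641585, mm8) was -1.29 and -0.85 with the shLoxl2 RNA in Cy5, and 1.11 and 1.19 with it in Cy3. The shSnail arrays, which had the silenced RNA in Cy5, gave -0.90 and -0.70. The ratio was thus negative wherever the silenced RNA was in Cy5 and positive wherever it was in Cy3. The probe was well above background in 1 of 4 shLoxl2 and 2 of 4 shGFP channels, and in all channels of the shSnail arrays, so the shLoxl2 value rests mostly on channels near background. Averaged over both orientations, Lox was at 0.04 in shLoxl2 against shGFP (SE 0.13, n = 2 dye-swapped pairs, limma adjusted p = 0.870, 95% confidence interval -0.27 to 0.35). In shSnail, with the dye effect taken from the shLoxl2 pairs removed, it was at 0.31 (SE 0.16, n = 2, limma adjusted p = 0.232). Without that removal it was at -0.80 (limma adjusted p = 0.00276), so the sign and the call in shSnail depended on the correction.

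Loxl2, the lysyl oxidase-like enzyme whose transcript the shLoxl2 hairpin was directed against, behaved likewise on its probe (chromosome 14, 68427414 to 68427473, mm8). Its ratio was -1.30 and -0.68 in shLoxl2 over shGFP with the shLoxl2 RNA in Cy5, and 1.38 and 1.04 with it in Cy3. On the shSnail arrays it was -0.95 and -0.71. The fitted change was 0.11 in shLoxl2 (SE 0.12, limma adjusted p = 0.590, interval -0.18 to 0.40). The probe was well above background in 2 of 4 shLoxl2 channels and 1 of 4 shGFP channels of the shLoxl2 arrays, so it does not check the label of the hairpin. On the shSnail arrays it was well above background in both channels, and the value was 0.27 with the dye effect removed (limma adjusted p = 0.377) and -0.83 without (limma adjusted p = 0.00492). The Snai1 probe was well above background in 0 of 2 shSnail channels and 0 of 2 shGFP channels of the shSnail arrays, so the shSnail label has no check here either.

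The dye effect, the mean log2 ratio of Cy5 over Cy3 within a dye-swapped pair, put a size on this. It was -1.11 for Lox and -1.10 for Loxl2 on the log2 scale, and 2.56% and 2.62% of tested probes had a more negative one. For Lox it was -1.20 in pair 1 and -1.02 in pair 2, and for Loxl2 -1.34 and -0.86, so it recurred in both pairs. Among the other 8 genes it lay between -0.09 and 0.77. Over all tested probes the SD of the dye effect was 0.46, and it correlated at 0.79 between the 2 pairs. A strong dye effect was thus not particular to Lox and Loxl2. Across all tested probes, shLoxl2 over shGFP ratios of the 2 orientations correlated at 0.02 in replicate 1 and -0.03 in replicate 2. The averages of the 2 pairs correlated at 0.68. The slope of the dye effect on the shSnail ratios across probes was 0.45, whereas full removal treats the dye effect as equal on all arrays.

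**Figure D2:**
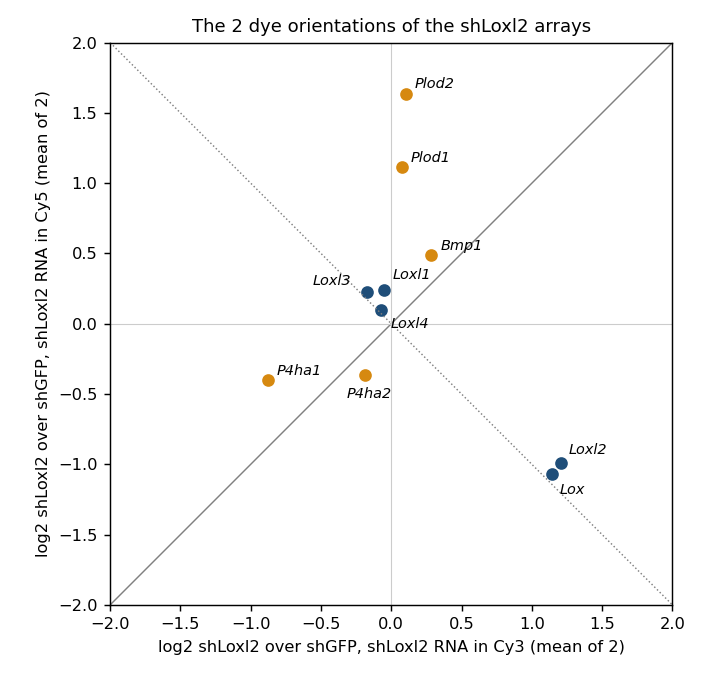
Mean log2 ratio of shLoxl2 over shGFP with the shLoxl2 RNA in Cy5 (vertical) against that with it in Cy3 (horizontal), each over 2 arrays, for the 10 genes, lysyl oxidases in blue and the others in orange. The solid line is equal ratios and the dotted line opposite ratios. Lox (-1.07 in Cy5, 1.15 in Cy3) and Loxl2 (-0.99 in Cy5, 1.21 in Cy3) lie near the dotted line, while P4ha1 is negative on both axes.

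Loxl1, which acts in elastic fibre assembly, showed no settled direction. Its ratio in shLoxl2 over shGFP was 0.34 and 0.14 with the shLoxl2 RNA in Cy5 and 0.68 and -0.79 with it in Cy3, and 0.37 and 0.48 on the shSnail arrays. The shLoxl2 arrays of replicate 2 therefore fell on both sides of 0. The fitted changes were 0.09 in shLoxl2 (limma adjusted p = 0.799) and 0.28 in shSnail (limma adjusted p = 0.578). Loxl1 (probe on chromosome 9, 58088900 to 58088959, mm8) was well above background in 2 of 2 shSnail channels and 0 of 2 shGFP channels beside them. It was well above background in 6 of 6 Cy5 and 0 of 6 Cy3 channels over all arrays, so this pattern followed the dye. The bound computed from it, 1.06-fold higher in shSnail, cannot separate hairpin from dye. It came from mean normalised log2 intensities of 6.73 in shSnail and 6.30 in shGFP. The dim side of this bound is, per array, the larger of the probe's own signal and the lowest one flagged as well above background.

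Loxl3 (chromosome 6, 83016090 to 83016262, mm8) was well above background in 2 of 4 shLoxl2 and 2 of 4 shGFP channels, never in both channels of 1 array, and on the shSnail arrays in 2 of 2 shSnail and 1 of 2 shGFP channels. Its ratio was 0.39 and 0.06 with the shLoxl2 RNA in Cy5, -0.50 and 0.16 with it in Cy3, and 0.03 and 0.26 on the shSnail arrays. The fitted changes were 0.03 in shLoxl2 (SE 0.12, limma adjusted p = 0.908) and -0.05 in shSnail (SE 0.20, limma adjusted p = 0.885), and the shSnail value was -0.70 with the software's log ratios (limma adjusted p = 0.259). Loxl4 (chromosome 19, 42653346 to 42653405, mm8) was well above background in 1 of 4 shLoxl2 channels and in no shGFP or shSnail channel. It was not tested and has no fold. Loxl3 and Loxl4 are further amine oxidases of the same family.

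The lysyl hydroxylases Plod1 and Plod2 each had 1 array far from the rest. For Plod1 (chromosome 4, 146759728 to 146761148, mm8) the ratio of shLoxl2 over shGFP was 0.15 and 2.07 with the shLoxl2 RNA in Cy5 and 0.15 and -0.002 with it in Cy3. Replicate 2 with the shLoxl2 RNA in Cy5 stood apart, and its shGFP channel was not well above background. The shSnail arrays gave -0.51 and -0.03, both below 0. The fitted change was 0.59 in shLoxl2 (SE 0.23, limma adjusted p = 0.166) and -0.79 in shSnail (SE 0.42, limma adjusted p = 0.227). The dye effect subtracted for shSnail was 0.52, with -0.001 in pair 1 and 1.04 in pair 2, which holds the outlying array. With no dye correction the shSnail value was -0.27 (limma adjusted p = 0.4995). Without shLoxl2 replicate 1, which gives the outlying array more weight, Plod1 passed in shLoxl2 (1.03, limma adjusted p = 0.0444) and in shSnail (-1.31, limma adjusted p = 0.0321).

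Plod2 (chromosome 9, 92411416 to 92411475, mm8) had ratios of 3.22 and 0.06 with the shLoxl2 RNA in Cy5 and 0.33 and -0.13 with it in Cy3. On the shSnail arrays it had 0.14 and 0.11. Here replicate 1 with the shLoxl2 RNA in Cy5 stood apart, again with a shGFP channel that was not well above background. The mean signal of that channel before background correction was 550.7. On the same array the shGFP channels of Loxl1, Loxl4 and Snai1, also not well above background, read 658.5, 669.7 and 647.4. In the shGFP channels of the shSnail arrays Plod2 read 544.8 and 473.0 and was well above background. Loxl4 was not, at 376.2 and 295.7, so these signals do not compare across arrays. The fitted change was 0.87 in shLoxl2 (SE 0.39, limma adjusted p = 0.216) and -0.64 in shSnail (SE 0.63, limma adjusted p = 0.517). The shSnail value is negative although both arrays were positive, since the subtracted dye effect of 0.77 includes the outlying shLoxl2 array. With shLoxl2 replicate 2 left out, so that this array weighs more, Plod2 passed in shLoxl2 (1.78, limma adjusted p = 0.00727) and in shSnail (-1.31, limma adjusted p = 0.0164).

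P4ha1 (chromosome 10, 58766881 to 58766940, mm8) was lower in the silenced channel of all 6 arrays. Its ratio in shLoxl2 over shGFP was -0.16 and -0.64 with the shLoxl2 RNA in Cy5 and -1.01 and -0.74 with it in Cy3. In shSnail over shGFP it was -0.40 on both arrays. The normalised log2 intensity was 8.47, 8.58, 8.38 and 8.40 in the shLoxl2 channels, against 8.62, 9.22, 9.39 and 9.14 in the shGFP channels of the same arrays. On the shSnail arrays it was 8.53 and 8.65 in shSnail, against 8.92 and 9.05 in shGFP. The silenced and shGFP channels did not overlap in either set of arrays, with 8.58 against 8.62 as the closest on the shLoxl2 arrays. The share of all tested probes that separate in this way was not counted, and the shGFP channels repeat 1 control sample. In RNA of whole cultures, fewer cells that express a gene and less RNA per cell cannot be told apart.

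P4ha1 fell in shLoxl2 cells by 0.64 on the log2 scale (SE 0.11, n = 2 pairs, limma adjusted p = 0.0160, 95% confidence interval -0.90 to -0.38), which is 1.56-fold lower, with -0.58 in pair 1 and -0.69 in pair 2. It fell in shSnail cells by 0.63 (SE 0.17, n = 2, limma adjusted p = 0.0403, interval -1.03 to -0.23), with both arrays lower, and the value was -0.40 with no dye correction (limma adjusted p = 0.0396). The call in shLoxl2 was lost with the software's own log ratios (-0.99, limma adjusted p = 0.0503) and with the Cy5 arrays alone (-0.40, limma adjusted p = 0.0880). In shSnail it was lost without either shSnail replicate (-0.63 in both, limma adjusted p = 0.162 and 0.144), without shLoxl2 replicate 1 (-0.45, limma adjusted p = 0.132) and with the software's log ratios (-0.82, limma adjusted p = 0.0555).

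Because P4ha1 passed in both silencings, the 3 tested probes whose 6 ratios lay nearest to its own were looked up by root mean square difference. They were Psmd14, a proteasome subunit, at 0.103, Rnf113a2, a RING finger gene, at 0.128, and Recql4, a DNA helicase, at 0.149 on the log2 scale over 6 arrays. Psmd14 had ratios of -0.39 and -0.56 with the shLoxl2 RNA in Cy5, -0.99 and -0.76 with it in Cy3, and -0.39 and -0.35 in shSnail. All 3 were negative on every array, as P4ha1 was, which follows largely from their choice by nearness to it.

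P4ha2 (chromosome 11, 53974723 to 53974781, mm8) was lower in shLoxl2 and higher in shSnail on every array, without passing in either. Its ratio was -0.38 and -0.34 with the shLoxl2 RNA in Cy5 and -0.33 and -0.04 with it in Cy3, and 0.13 and 0.25 on the shSnail arrays. The normalised log2 intensity averaged 10.35 in shLoxl2 and 10.62 in shGFP, and on the other arrays 10.54 in shSnail and 10.35 in shGFP. The fitted changes were -0.28 in shLoxl2 (SE 0.11, limma adjusted p = 0.184) and 0.28 in shSnail (SE 0.15, limma adjusted p = 0.220). The direct difference of shSnail minus shLoxl2, over the 4 arrays whose Cy5 channel held silenced RNA, was 0.55 (SE 0.15, limma adjusted p = 0.0757, interval 0.16 to 0.95). It passed with no background subtraction (0.40, limma adjusted p = 0.0407) and among probes well above background in both channels on every array (0.55, limma adjusted p = 0.0284).

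The procollagen C-proteinase Bmp1 (chromosome 14, 69210100 to 69210159, mm8) had the opposite pattern to P4ha2 by sign. Its ratio was 0.22 and 0.76 with the shLoxl2 RNA in Cy5, -0.06 and 0.64 with it in Cy3, and -0.38 and -0.06 on the shSnail arrays. The 2 shLoxl2 pairs differed, at 0.08 and 0.70. The fitted changes were 0.39 in shLoxl2 (SE 0.18, limma adjusted p = 0.228) and -0.32 in shSnail (SE 0.23, limma adjusted p = 0.375). The difference of shSnail minus shLoxl2 was -0.70 (SE 0.24, limma adjusted p = 0.121, interval -1.32 to -0.08), and without shLoxl2 replicate 1 it was -0.97 and passed (limma adjusted p = 0.0319).

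**Figure D3:**
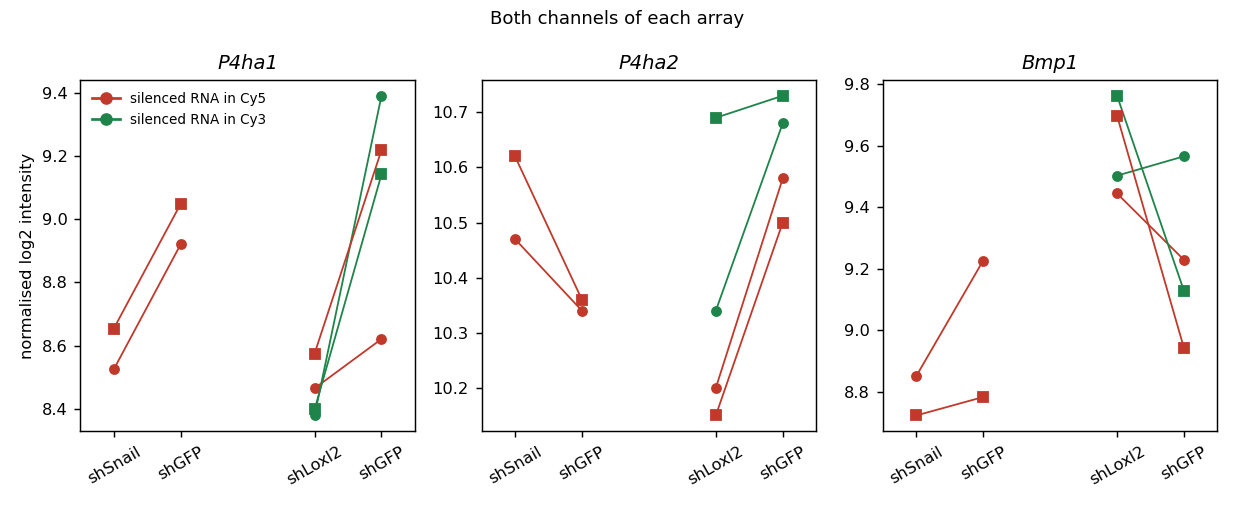
Normalised log2 intensity of P4ha1, P4ha2 and Bmp1 in both channels of each array, with lines joining the channels of 1 array, the silenced RNA left of shGFP, circles for replicate 1 and squares for replicate 2. P4ha1 is lower in the silenced channel on all 6 arrays, and the vertical axes differ between genes.

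For the remaining genes, shSnail against shLoxl2 gave differences from -1.51 for Plod2 and -1.38 for Plod1 to 0.27 for Lox, and P4ha1 was at 0.005 (SE 0.21, limma adjusted p = 0.990). The intervals of Plod1 and Plod2 were the widest of the 9, since each rests on the outlying shLoxl2 array. The 2 silenced groups were scanned as separate sets of arrays, per the file headers, so in this comparison the scan and the group cannot be told apart. Both comparisons against shGFP share the shGFP RNA and the dye effect.

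**Figure D4:**
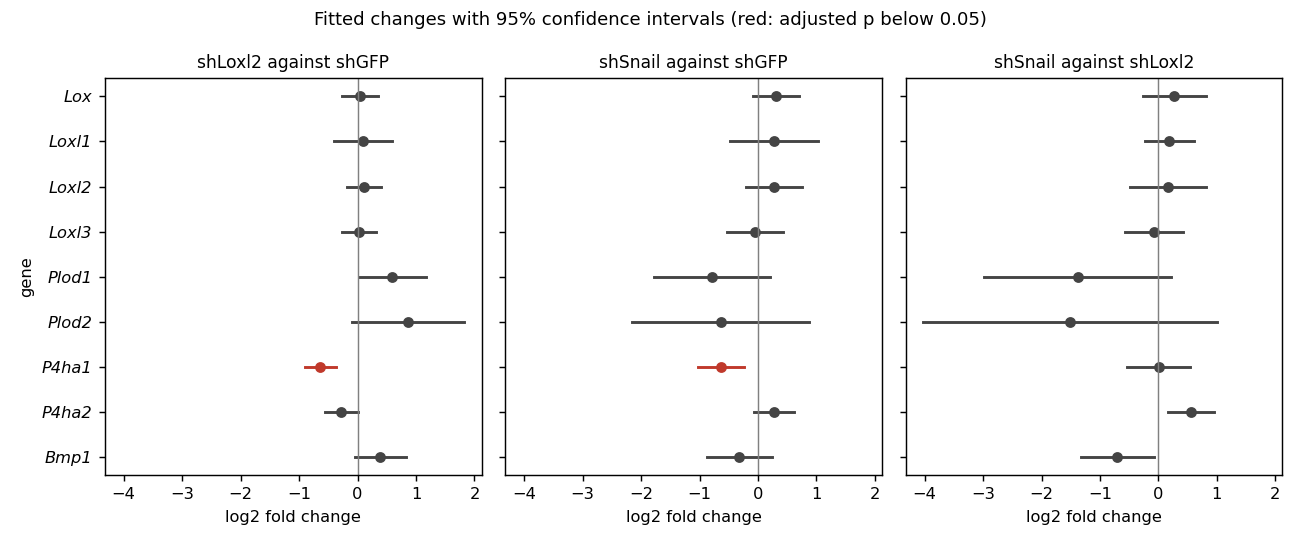
Fitted log2 fold change of the 9 tested genes with its 95% confidence interval in shLoxl2 against shGFP, shSnail against shGFP and shSnail against shLoxl2, on a shared axis, red where the adjusted p was below 0.05. P4ha1 is red in the first 2 panels at -0.64 and -0.63, and the intervals of Plod1 and Plod2 are wide in all 3.

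The other genes of collagen handling were read from 4 lists. Of 13 further collagen hydroxylases, glycosyltransferases and chaperones tested, 3 rose and 0 fell in shLoxl2, against 8.08% and 5.85% of all tested probes, and their median was 0.32 where that of all tested probes was -0.01. The prolyl 3-hydroxylase P3h3 rose by 1.02 (SE 0.12, limma adjusted p = 0.00632), with 1.02 and 1.03 in the 2 pairs. P3h1, the prolyl 3-hydroxylase that acts on fibrillar collagen chains, rose by 0.66 (SE 0.12, limma adjusted p = 0.0196). Colgalt1, which adds galactose to hydroxylysine, rose by 0.67 (SE 0.15, limma adjusted p = 0.0420). P4hb, protein disulfide isomerase and the beta subunit that pairs with P4ha1 and P4ha2, was at 0.43 and did not pass (limma adjusted p = 0.0784). P3h1 did not pass without either replicate (limma adjusted p = 0.0648 and 0.0577), and without replicate 1 neither did Colgalt1 (0.50, limma adjusted p = 0.190), which left 1 gene without replicate 1 and 2 without replicate 2. With the software's log ratios and with Cy3 alone 1 of the 13 rose, and with Cy5 alone 6 rose and 2 fell.

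In shSnail 0 of these 13 rose and 0 fell in limma, against 8.81% and 12.6% of all tested probes, with a median of -0.09 where all tested probes had -0.04. The 4 with the smallest p were Serpinh1, the collagen chaperone HSP47, at -0.46 and saturated in 2 channels, Fkbp14 at 0.43, Colgalt1 at -0.59 and Fkbp10. Their limma adjusted p ran from 0.0556 for Serpinh1 to 0.116 for Fkbp10. Fkbp14 and Fkbp10 are prolyl isomerases of the endoplasmic reticulum. The sign of Fkbp14 rested on the dye correction, since its value was -0.07 without it. Fkbp10 was well above background in 2 of 2 shSnail channels and 0 of 2 shGFP channels beside them. Over all arrays it was so in 6 of 6 Cy5 and 0 of 6 Cy3 channels, so this pattern followed the dye. The bound of 1.07-fold higher, from mean log2 intensities of 6.79 in shSnail and 6.65 in shGFP, cannot separate hairpin from dye. The fitted value of Fkbp10 with the dye effect removed had the other sign. Between the silencings, shSnail against shLoxl2, 1 of the 13 was higher and 3 were lower, against 4.24% and 8.56% of all tested probes. Colgalt1 differed by -1.25, P3h3 by -0.95 and P3h1 by -0.87, and Fkbp14 was higher by 0.68, with limma adjusted p from 0.0261 for Colgalt1 to 0.0492 for Fkbp14. Fkbp14 was at 0.40 with the dye effect scaled by its slope and then did not pass (limma adjusted p = 0.154).

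Among 11 tested genes of procollagen processing, 2 rose and 1 fell in shLoxl2, against 8.08% and 5.85% of all tested probes, with a median of 0.14 that was -0.02 with no background subtraction. Pcolce, the secreted protein that enhances the cleavage of procollagen by Bmp1, had the largest change of the 4 lists in shLoxl2. It was at 2.49 in pair 1 and 2.47 in pair 2 of shLoxl2 over shGFP, and at -0.19 and 0.03 on the shSnail arrays. Pcolce rose by 2.48 in shLoxl2 (SE 0.11, n = 2, limma adjusted p = 0.000582), and shSnail minus shLoxl2 was -2.45 (SE 0.18, limma adjusted p = 0.0117). Furin, a proprotein convertase, rose by 0.50 in shLoxl2 (SE 0.11, limma adjusted p = 0.0367). Pcsk6, a related convertase, was at 0.41 and did not pass (limma adjusted p = 0.0581). Tll2, a tolloid-like relative of Bmp1, passed as lower (limma adjusted p = 0.0370). It was well above background in 0 of 4 shLoxl2 channels and 2 of 4 shGFP channels. Both of these shGFP channels were Cy5, and no Cy3 channel of Tll2 was well above background on any array. The bound computed for it was 1.09-fold lower, from mean log2 intensities of 6.26 in shLoxl2 and 6.76 in shGFP. The shGFP mean includes channels not well above background, so this bound is not a strict lower limit. Without either replicate neither Furin (limma adjusted p = 0.0860 and 0.0928) nor Tll2 (limma adjusted p = 0.0708 and 0.102) passed.

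In shSnail 1 of these 11 rose and 1 fell, against 8.81% and 12.6% of all tested probes, with a median of -0.01. Furin fell by 1.04 (SE 0.15, limma adjusted p = 0.00528), with uncorrected ratios of -0.81 and -0.95. Mep1a, the meprin alpha subunit, rose by 0.51 (SE 0.14, limma adjusted p = 0.0411), with uncorrected ratios of 0.19 and 0.15. With no dye correction Mep1a was at 0.17 and did not pass (limma adjusted p = 0.204), nor did it without any 1 replicate (limma adjusted p = 0.0811 to 0.189). Adamts3, a procollagen N-proteinase, was at -0.60 with the dye effect removed and at 0.14 without, and did not pass (limma adjusted p = 0.278). Pcsk5 did not pass either (limma adjusted p = 0.148) and has no fold, since it was well above background in no channel of the shSnail arrays. Set against shLoxl2 cells, shSnail cells had 1 of the 11 that was higher and 2 that were lower, against 4.24% and 8.56% of all tested probes. Furin differed by -1.54 (limma adjusted p = 0.0170) and Mep1a by 0.74 (limma adjusted p = 0.0387).

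Of the 19 collagen chains tested, which are the substrates of these enzymes, 3 rose and 1 fell in shLoxl2, against 8.08% and 5.85% of all tested probes, with a median of 0.11. Col7a1, the anchoring fibril collagen, rose by 1.62 (SE 0.13, limma adjusted p = 0.00225), Col16a1 by 1.31 (SE 0.11, limma adjusted p = 0.00261) and Col5a1, a fibrillar chain, by 1.04 (SE 0.11, limma adjusted p = 0.00432). Col17a1, the hemidesmosomal collagen, fell by 1.34 (SE 0.13, limma adjusted p = 0.00395). In shSnail 0 of the 19 rose and 6 fell, against 8.81% and 12.6% of all tested probes, with a median of -0.43. Col5a1 fell by 1.92 (SE 0.14, limma adjusted p = 0.00127), Col8a1 fell by 1.82 (SE 0.28, limma adjusted p = 0.00715), Col17a1 fell by 1.36 (SE 0.18, limma adjusted p = 0.00401) and Col18a1 fell by 1.12 (SE 0.13, limma adjusted p = 0.00323). Col5a1 thus went opposite ways, and Col17a1 fell in both. Relative to shLoxl2, in shSnail 0 of the 19 were higher and 8 were lower, against 4.24% and 8.56% of all tested probes, with a median of -0.30, where all tested probes had -0.04. Col5a1 differed by -2.97 (SE 0.15, limma adjusted p = 0.00491), Col7a1 by -2.17 (SE 0.30, limma adjusted p = 0.0200) and Col16a1 by -1.69 (SE 0.17, limma adjusted p = 0.0164). Of the 15 named genes of the 4 lists that passed between the silencings, 1, Col5a1, still passed without shSnail replicate 1 or without shSnail replicate 2. The medians of the chains moved with the processing. In shSnail leaving the background in gave a median of -0.12, leaving the dye effect in gave -0.17, and the software's log ratios gave -1.10, where all probes had -0.28. In shLoxl2 it was 0.03 with no background subtraction and 0.34 with the software's log ratios, where all probes had -0.04.

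Among 24 tested genes of the elastic fibre and of cross-link partners, 3 rose and 2 fell in shLoxl2, near the 8.08% and 5.85% of all tested probes, with a median of 0.05 that was -0.01 with no background subtraction. The fibulins Fbln2 and Fbln1 rose by 0.99 (SE 0.13) and 0.78 (SE 0.13), Ltbp1 was at 0.69 (limma adjusted p = 0.0268), and Ltbp4, a latent TGF-beta binding protein, fell by 0.88 (SE 0.11). Sparc, a collagen-binding matrix protein, fell by 0.69 (SE 0.12), and the limma adjusted p of Fbln2, Fbln1, Ltbp4 and Sparc lay between 0.00667 and 0.0176. Without replicate 1 or 2 Fbln1 did not pass (limma adjusted p = 0.0606 and 0.0504), nor Sparc without replicate 1 (limma adjusted p = 0.0739) or Ltbp1 without replicate 2 (limma adjusted p = 0.0909), and with the software's log ratios limma called 0 of the 24. In shSnail 0 of the 24 rose and 5 fell, against 8.81% and 12.6% of all tested probes, with a median of -0.21. Fn1, fibronectin, fell by 2.27 (SE 0.28), Sparc fell by 1.20 (SE 0.15), Ltbp4 fell by 1.07 (SE 0.13) and Ltbp1 fell by 0.87 (SE 0.19), with limma adjusted p from 0.00356 to 0.0222. Ltbp1 did not pass without either shSnail replicate (limma adjusted p = 0.131 and 0.0535) or without shLoxl2 replicate 1 (limma adjusted p = 0.0688). In shSnail against shLoxl2, 0 of the 24 were higher and 3 were lower, against 4.24% and 8.56% of all tested probes, and these were Fn1 at -2.22, Ltbp1 at -1.57 and Fbln2 at -1.35. The genes named from the 4 lists were well above background in both channels on all 6 arrays, except Tll2, Fkbp10, Pcsk5, Pcsk6, Adamts3 and Col7a1.

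**Figure D5:**
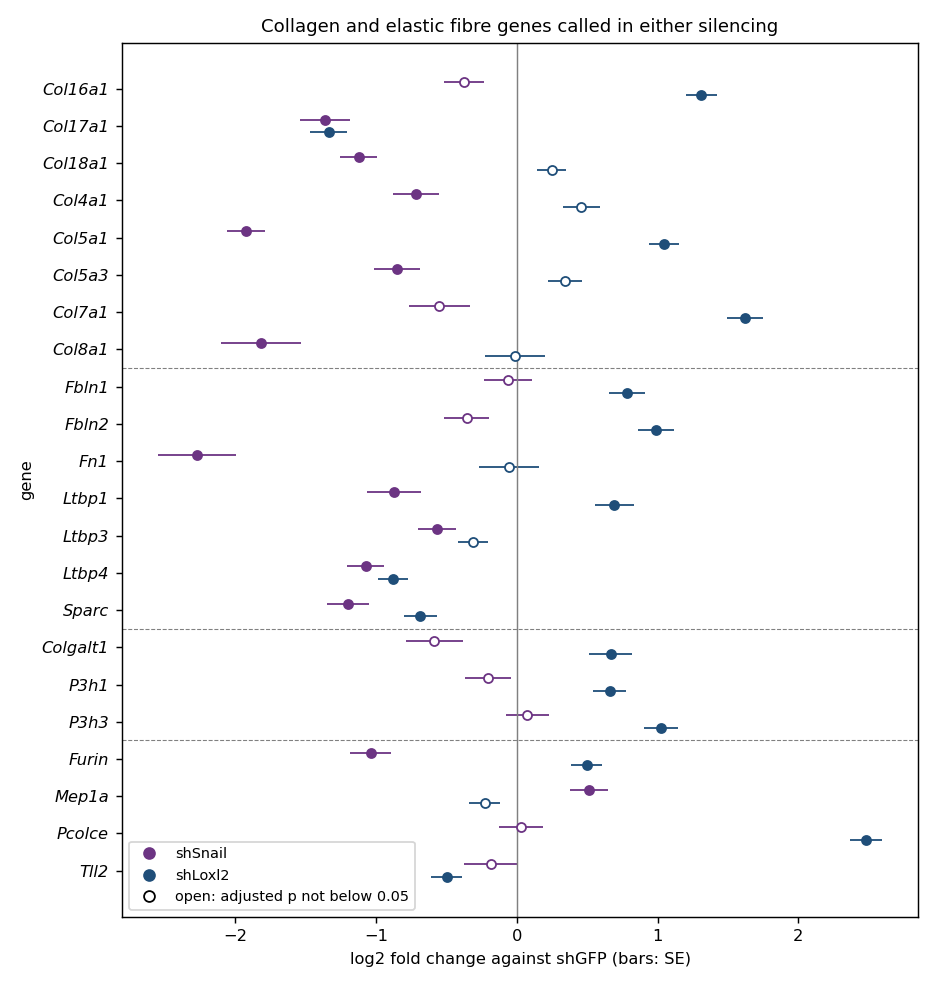
Log2 fold change against shGFP of the 22 genes of the 4 lists that passed in either silencing, with bars of 1 SE, shSnail in purple above shLoxl2 in blue, filled where the adjusted p was below 0.05. Dashed lines part the lists, which run from collagen chains at the top through elastic fibre and cross-link partners and the other hydroxylases, glycosyltransferases and chaperones to procollagen processing. Tll2 is drawn at its fitted value, although no shLoxl2 channel of Tll2 was well above background. Pcolce is at 2.48 in shLoxl2, and Col5a1 is at -1.92 in shSnail and 1.04 in shLoxl2.

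The labels give no tissue for the cells, so cell type markers are given only as measured. Of 8 epithelial markers 5, and of 7 mesenchymal markers 5, were well above background in both channels on all 6 arrays, as were 3 of 6 leukocyte markers, 0 of 5 endothelial markers and 5 of 6 muscle and neural markers. Of the leukocyte markers, Cd3e, Cd68 and Adgre1 were well above background in all channels, and Ptprc, the defining one, in 0 of 6 Cy5 and 1 of 6 Cy3 channels. The epithelial list had 2 genes that rose and 2 that fell in shLoxl2 and 1 that rose and 3 that fell in shSnail. The mesenchymal list had 0 that rose and 1 that fell in shLoxl2, and 1 that rose and 2 that fell in shSnail. The 1 that rose in shSnail was Thy1. It was well above background in 0 of 2 shSnail and 0 of 2 shGFP channels of those arrays, so it has no fold there. The leukocyte list had 1 that rose, Cd68, and 0 that fell in shLoxl2, and 0 of either in shSnail. In shLoxl2 8.08% of all tested probes rose and 5.85% fell, and in shSnail 8.81% rose and 12.6% fell. The part of these markers in the changes of the collagen genes was not tested.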

How the data were processed

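RNA of 4 shLoxl2 and 2 shSnail hybridisations, each against shGFP RNA, was read from the scanner files, with the direction of each ratio taken from the dyes in the labels. Spot intensity values of both channels, the log10 ratio of Cy5 over Cy3 and the flags for spots well above background were deposited as the authors' scanner software made them, Agilent Feature Extraction 9.5.1.1 per the file headers and, by the submitters' processing notes, version 6.1.1. The labels name a linear amplification kit for labelling. The files give probe positions in mm8. A deposited table of values holds the log10 ratios, rounded. Its column of shSnail replicate 2 matched its own scanner file within 0.006 at 9.37% of spots, against 100% for each other column, so that column was not used. That column had the same median log10 ratio as the column of shSnail replicate 1, 0.0371. The scanner files of the replicates had different median log2 ratios, 0.13 in replicate 1 and 0.09 in replicate 2.

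Background was corrected by normexp (offset 50) and ratios were normalised within arrays by loess in limma 3.58.1 (R 4.3.3, data.table, version 1.17.8), with 736 control spots and outlier spots at weight 0. Loess sets the bulk of ratios near 0 on each array. The 21318 probe spots gave 20868 probes, and the 19752 that reached the flag in 1 channel or more on 2 arrays or more were tested. Channel intensities were scaled between arrays by Aquantile. The 2 arrays of a shLoxl2 number were averaged with the sign turned, and the shSnail values shared the estimate of spread. For shSnail, the dye effect came from the shLoxl2 pairs. shSnail against shLoxl2 used the 4 arrays whose Cy5 channel held silenced RNA. Tests were lmFit and eBayes with Benjamini-Hochberg adjustment over all tested probes at 0.05, and the code was tested on simulated data. A gene of a list was represented by its brightest tested probe, and Col6a3, Col12a1 and Ppib had others, which passed nowhere. The text names the 10 genes and Snai1, up to 4 genes per list by smallest p in each comparison against shGFP, and the 3 probes nearest to P4ha1. The members and lists were chosen with earlier results of these data known. RefSeq promoters and names are of GRCm38.p6, and names came from RefSeq accessions for 14711 probes and from the files for 6157.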

Additional observations from a re-analysis of the deposited data

Results flagged for a closer look

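Among the 10 genes, 3 had 1 of their 4 shLoxl2 arrays far from the others by Dixon's criterion, in which the gap to the nearest array is divided by the range of the 4 arrays. For 4 independent values of equal spread, chance alone marks about 1 in 20 such groups. The 4 arrays here were replicates 1 and 2 in 2 dye orientations, so that rate need not hold. The share of all tested probes that the criterion marks was not counted. Plod1 reached 0.925 through the array at 2.07, replicate 2 with the shLoxl2 RNA in Cy5. Plod2 reached 0.862 through the array at 3.22, replicate 1 with the shLoxl2 RNA in Cy5. In both, the shGFP channel of that array was not well above background. P4ha2 reached 0.856 through the array at -0.04, replicate 2 with the shLoxl2 RNA in Cy3, where both channels were well above background.

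Among the genes named from the 4 lists, limma's test of shSnail minus shLoxl2 passed, with lower values in shSnail, for the collagens Col5a1 at -2.97, Col7a1 at -2.17, Col8a1 at -1.80, Col16a1 at -1.69 and Col18a1 at -1.37. The same held for the matrix proteins Fn1 at -2.22, Ltbp1 at -1.57 and Fbln2 at -1.35. It also held for Pcolce at -2.45, Furin at -1.54, Colgalt1 at -1.25, P3h3 at -0.95 and P3h1 at -0.87. Mep1a at 0.74 and Fkbp14 at 0.68 were higher in shSnail, and neither comparison of Fkbp14 against shGFP passed. Of all tested probes 12.8% passed between the silencings. The genes were named by smallest p against shGFP in fits that used the same arrays, so these passes are not independent of that choice. Scan and group cannot be told apart here either. By limma, 0 of the 9 tested genes of the group passed between the silencings, and 2 had an unadjusted p below 0.05.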

How the results depend on the processing

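With 1 gene called in each comparison against shGFP and 0 in shSnail against shLoxl2, single settings changed the count of the 9 tested genes. In shLoxl2 against shGFP limma called 0 with the software's log ratios and 0 with the value table (1 gene with an unadjusted p below 0.05 in each), 2 with the silenced RNA in Cy5 alone and 3 with it in Cy3 alone. Without a shLoxl2 replicate it called 2 and 2. In shSnail against shGFP limma called 0 with the software's log ratios and 0 with the value table (2 and 3 genes with an unadjusted p below 0.05), 3 with no dye correction, and from 0 to 2 without 1 replicate. In shSnail against shLoxl2 it called 1, P4ha2, with no background subtraction and likewise 1 with probes well above background in both channels on every array. It called 2 with uncorrected shSnail ratios against the average of both shLoxl2 orientations, and from 0 to 2 without 1 replicate. With the dye effect scaled by its slope before removal, a setting chosen after seeing the data for shSnail against shLoxl2, the counts kept their main values. The replicate numbers pair no samples by the labels, and same-numbered arrays deviated together at a correlation of 0.21. The replicate block called 0 of the 9 genes and 2720 probes, against 2527 without it, and P3h1 and Fkbp14 then did not pass.

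Values that turned sign and had a call on one side were Lox at -1.07, Loxl2 at -0.99, Adamts3 at 0.58 and Pcsk5 at -0.80 in shLoxl2 with the silenced RNA in Cy5 alone, Lox at -0.80 and Loxl2 at -0.83 in shSnail with no dye correction, and Lox at -0.84 and Loxl2 at -0.94 in shSnail uncorrected against the average of both shLoxl2 orientations. Uncalled values of the 10 genes turned sign more often, and with those included 16 of 84, 17 of 93 and 19 of 102 estimates did so in the 3 comparisons. The median of the elastic fibre list in shLoxl2 was -0.16 with Cy3 alone. P4ha1 stayed negative against shGFP under every alternative run, but these all reused the same arrays, and its ratio was negative on each of them. Over all probes limma called 776 in shLoxl2 with the software's log ratios, 7636 with Cy5 alone, 6712 with Cy3 alone and 1747 without replicate 1, against 2751. In shSnail it called 7205 with no dye correction, and 1585 and 2002 without a shSnail replicate, against 4226. In shSnail against shLoxl2 it called 47 and 39 without a shSnail replicate and 4308 and 3949 without a shLoxl2 replicate, against 2527. The fits of the value table held only 1 shSnail array and so had less to estimate the spread from. This holds for their counts given above as well. The software's log ratios also moved the median of all probes to -0.28 in both comparisons of shSnail, and P4ha1 in shSnail lay 0.55 below that median. No fit with slide or scan date as a block was run, since each array had its own slide and each silenced group its own scans. Signal over background limits what can be said of the 5 lysyl oxidases.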
